A study of Mus musculus with 4 samples.

Results

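Cd3g, Cd3d, Cd3e and Cd247 encode the CD3 complex, the signalling part of the T cell receptor. Their chromatin was described from 20 accessible regions, chosen as all regions that overlap one of these 4 genes or the 20 kb on either side, out of 64525 regions in all. The regions came from ATAC-seq, which reads open chromatin from the places where a transposase can insert sequencing adapters. The cells were mouse naive CD4 T cells, with the source labelled Spleen and pLN. There were 2 libraries from mice labelled DDX55 KO and 2 libraries from mice labelled WT. Ddx55 encodes a DEAD-box RNA helicase. The labels give no age, no strain, no way of deletion (promoter or cell type of a Cre, for example) and no number of animals behind a library. The authors deposited 1 list of regions joined over all 4 libraries, with positions and no value per library. All values below therefore describe both genotypes together, and DDX55 KO was not compared with WT.

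The antigen-binding chains of the T cell receptor have almost no signalling part inside the cell. CD3 gamma, CD3 delta and CD3 epsilon, encoded by Cd3g, Cd3d and Cd3e, pair up beside them, and a pair of zeta chains, encoded by Cd247, completes the receptor. Each of these proteins carries ITAMs, short stretches with paired tyrosines that the kinase Lck phosphorylates and to which the kinase ZAP-70 then binds. All T cells depend on the complex to bring the receptor to the surface, and mature naive cells express its genes before they meet antigen.

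Of the 4 genes, 3 stand side by side on chromosome 9 of build mm10 and the other lies on chromosome 1. Cd3g (gene ID 12502) spans chr9:44969572-44980431 on the minus strand, Cd3d (gene ID 12500) spans chr9:44981769-44987052 on the plus strand, and Cd3e (gene ID 12501) spans chr9:44998735-45009663 on the minus strand. Cd3g and Cd3d point away from each other, with start sites 1355 bp apart. Cd247 (gene ID 12503) spans chr1:165779952-165871153 on the plus strand and is 91.2 kb long, against 10.9 kb for each of Cd3g and Cd3e and 5.28 kb for Cd3d. The start site of Cd247 in the RefSeq promoter table lies 8.73 kb inside this span, at 165788681.

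The 250 bases before each start site are shown because the 4 genes differ in whether an accessible region reaches them. They are RefSeq sequences of GRCm38.p6, the same assembly as mm10, read 5′ to 3′ on the strand of the gene. Capitals mark matches on either strand to the 11 short motifs searched, which are given below with their background. The windows are chr9:44980432-44980681 (minus strand) for Cd3g, chr9:44981536-44981785 (plus strand) for Cd3d, chr9:45009612-45009861 (minus strand) for Cd3e and chr1:165788431-165788680 (plus strand) for Cd247.
Cd3g: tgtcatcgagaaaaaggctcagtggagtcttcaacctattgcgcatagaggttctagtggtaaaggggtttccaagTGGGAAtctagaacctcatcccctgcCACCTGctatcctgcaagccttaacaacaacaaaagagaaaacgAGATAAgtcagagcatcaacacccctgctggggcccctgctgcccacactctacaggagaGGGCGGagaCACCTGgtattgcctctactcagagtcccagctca
Cd3d: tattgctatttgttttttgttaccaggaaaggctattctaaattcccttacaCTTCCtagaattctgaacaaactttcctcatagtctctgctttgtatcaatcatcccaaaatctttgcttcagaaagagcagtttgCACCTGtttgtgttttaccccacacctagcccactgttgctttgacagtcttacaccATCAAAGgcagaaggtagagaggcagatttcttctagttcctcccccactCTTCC
Cd3e: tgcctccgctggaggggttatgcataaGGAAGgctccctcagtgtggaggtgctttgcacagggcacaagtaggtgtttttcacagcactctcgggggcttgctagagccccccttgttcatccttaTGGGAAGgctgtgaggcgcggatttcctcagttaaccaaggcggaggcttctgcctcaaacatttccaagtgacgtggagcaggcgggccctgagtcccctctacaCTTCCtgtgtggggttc
Cd247: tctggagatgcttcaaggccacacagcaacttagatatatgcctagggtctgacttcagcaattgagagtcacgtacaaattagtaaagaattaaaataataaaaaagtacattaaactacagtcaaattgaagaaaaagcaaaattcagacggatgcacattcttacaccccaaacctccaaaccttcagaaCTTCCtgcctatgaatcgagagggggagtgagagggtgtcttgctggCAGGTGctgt

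Accessible regions covered the start sites of Cd3e and Cd3g, lay just past that of Cd3d and lay farther past the promoter-table site of Cd247. The Cd3e region (chr9:45009143-45009918, 776 bp wide) held the whole 250-base window shown above. The Cd3g region (chr9:44979989-44980648, 660 bp) held 217 of its 250 bases. The Cd3d region (chr9:44981798-44982031, 234 bp) held 0 of the 250 bases and began 12 bp past the start site. The Cd247 region (chr1:165789268-165790580, 1313 bp) also held 0 of the 250 bases and began 587 bp past the start site. Another region (chr1:165780051-165781265, 1215 bp) lay at the upstream end of the annotated span of Cd247, which begins 8.73 kb before this start site.

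All 4 genes had a region within 1 kb of a start site, against 53.7% of the 17492 protein-coding genes that the promoter table holds. A region covered the start site itself in 2 of the 4, against 46.1% of these genes. With the window widened to 300 bases, 250 before and 50 after the start, a region overlapped it in 3 of the 4, against 49.2%. The pattern of Cd3d and Cd247, with no region over the start site, one in the 1 kb past it and none in the 1 kb before it, was found in 3.36% of these genes. Which start site naive CD4 T cells use was not measured here, so the distances hold for the sites in the promoter table only. For Cd247 these counts leave out the upstream end of the annotated span, where another region lay.

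The promoters of these genes each held fewer CpG dinucleotides than the median promoter, and only that of Cd3d lay below the lower quartile. CpG is the sequence that marks the promoters of many broadly used genes. The 250 bases held 4 CpGs for Cd3g, 0 for Cd3d, 7 for Cd3e and 3 for Cd247, against a median of 10 (quartiles 3 and 19) over 21263 promoters of protein-coding genes. Cd3g, Cd3d and Cd247 were in the class with fewer than 5 CpGs, in which a region overlapped the 300-base window of 8.24% of 7170 promoters. That share was 52.3% of promoters with 5 to 14 CpGs, the class of Cd3e, and 77.8% of those with 15 or more. Within the low class, the window was overlapped by 267 bases for Cd3g and 38 bases for Cd3d. It was not overlapped at all for the Cd247 site in the promoter table. The share of G and C was 51.6% for Cd3g, 41.2% for Cd3d, 57.2% for Cd3e and 41.2% for Cd247, against a median of 55.6%.

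The 11 motifs gave 15 matches in the 4 promoters, and no motif was found in all of them. The E box form CAGGTG, bound by E proteins, was present in Cd3g (at -148 and -35), Cd3d (-112) and Cd247 (-10), against 16.9% of all promoters; positions give the leftmost base, counted back from the start site. The ETS core GGAAG, bound by ETS factors, was present in Cd3d (-198 and -5), Cd3e (-223, -121 and -17) and Cd247 (-57), against 65.1%. The Ikaros motif TGGGAA was present in Cd3g (-174) and Cd3e (-123), against 20.9%; in Cd3e it overlaps the ETS core at -121. On the sense strand alone the 15 matches became 7. The form CAGGTG then matched Cd247 only (9.4% of all promoters), GGAAG matched Cd3e only (40.9%), and TGGGAA still matched Cd3g and Cd3e (10.9%).

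The other motifs were found in at most 1 of the promoters. The TCF/LEF form CTTTGAT matched Cd3d at -55 (2.82% of all promoters), AGATAA, bound by GATA factors, matched Cd3g at -104 (8.81%), and GGGCGG, bound by SP and KLF factors, matched Cd3g at -44 (42.6%). No match was found in the 4 windows for the RUNX motif TGTGGT, which 12.4% of all promoters held. The same was true of the TCF/LEF form CTTTGAA, which 4.05% held, and of the E box form CAGCTG, which 12.1% held. Nor was there a match to the AP-1 motif TGANTCA, held by 6.13%, or to the TATA box letters TATAAA, held by 11.6%. These matches describe letters only, and binding was not measured. Of the matches in Cd3d and Cd247, all lay in bases that no region covered.

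The Cd3 cluster, from 20 kb before Cd3g to 20 kb past Cd3e, held 8 regions that covered 4348 bp of 80.1 kb. Of these, 5 lay within 1 kb of an annotated start site and 3 lay farther from every start site. Counted from low to high coordinates, regions 1 and 2 (513 and 719 bp) lay in the neighbouring gene Ube4a, which encodes a ubiquitin ligase, and region 2 covered the Ube4a start site. Region 3 was that of the Cd3g start and region 4 that of the Cd3d start. Regions 5 and 6 lay towards the 3′ end of Cd3d, region 7 covered the Cd3e start, and region 8 (chr9:45010510-45010638, 129 bp) lay upstream of it, with its nearest edge 899 bp from the start site.

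**Figure D1:**
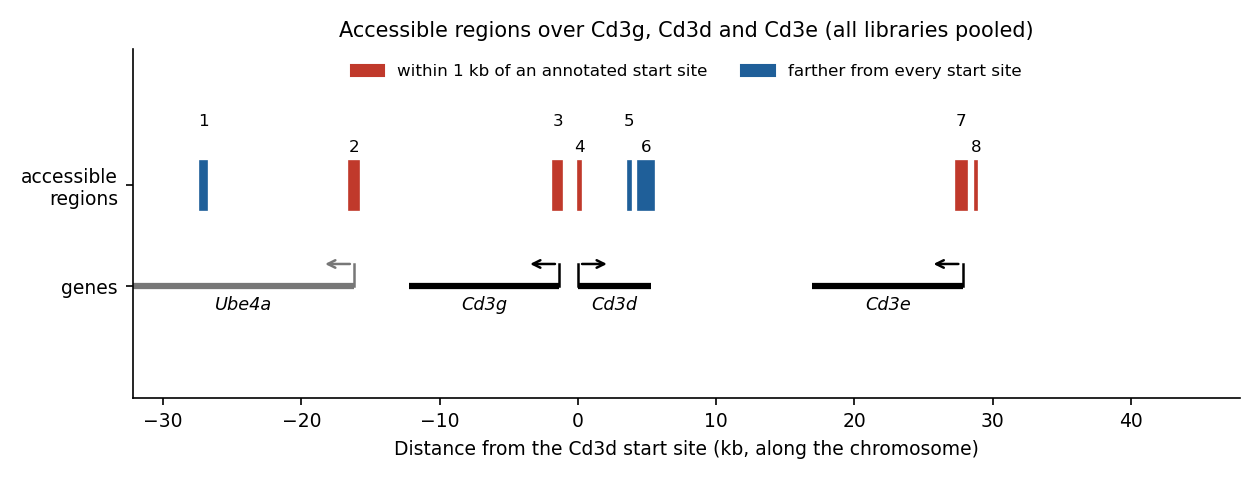
Map of the Cd3 cluster, with the distance from the Cd3d start site along the chromosome (kb) on the horizontal axis, the 8 accessible regions above, numbered from low to high coordinates, and genes below with arrows at start sites. Regions 3 to 6 crowd around Cd3d, and the body of Cd3e shows only region 7, at its start.

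The widest region of the cluster lay at the 3′ end of Cd3d, not at a start site. Region 6 (chr9:44986151-44987309) was 1159 bp wide, with 902 bp inside the gene and 257 bp past its annotated end. Its nearest edge was 4365 bp past the Cd3d start site, and no other annotated start site lay within 1 kb. Of all regions that far from every start site, 1.49% were at least as wide, and their median width was 263 bp. In human T cells an enhancer has been described 3′ of CD3D; whether region 6 is its mouse counterpart was not tested.

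Among the 4 genes, Cd3d was the one with a region within 1 kb of its 3′ end, against 8.79% of the protein-coding genes with a start site. For 949 of those genes, or 5.43%, such a region was over 1 kb from every start site. The widest of these had a median width of 320 bp, and 18 of the 949 genes, Cd3d included, had one of 1159 bp or more. The smaller region 5 (chr9:44985436-44985593, 158 bp) lay 557 bp before region 6 inside Cd3d. Cd3d thus had 3 regions in a body of 5.28 kb, and 24.5% of that body was accessible. This share was reached by 1.85% of all 21887 protein-coding genes, whose median was 1.16%. The comparison of shares was not matched for length, and the median length of these genes was 17169 bp.

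Cd3g and Cd3e had 1 region each inside the gene, both at the start. The accessible share of the body was 4.08% for Cd3g and 4.77% for Cd3e, which 22.7% and 19.4% of protein-coding genes reached. Among the 3417 genes of 5 to 11 kb, a length class that holds all 3 cluster genes, 46.3% had 1 region in the body, as Cd3g and Cd3e did, 41.6% had 0, and 1.9% had 3 or more, as Cd3d did. A stretch of 21.8 kb without a region ran from the 3′ end of Cd3d across most of Cd3e, and 45.2% of all gaps between neighbouring regions were as long. Past region 8 the next region lay 44.5 kb away.

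Cd3g and Cd3d each had a region of their own at the start, 1149 bp apart. Over the stretch between both start sites, with 250 bases added on either side, there were 2 regions. Of 88 pairs of neighbouring protein-coding genes that point away from each other with start sites 1 to 2 kb apart, 34.1% had 2 regions in this stretch, 50.0% had 1 and 15.9% had 0.

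Because the 3 genes lie close together, their 20 kb windows shared regions. The window of Cd3g held 6 regions, that of Cd3d 5 and that of Cd3e 6, with regions 3 to 6 in all 3. A window of Cd3g or Cd3e therefore counted regions 4 to 6, which lie inside Cd3d. Per 100 kb of window there were 11.8, 11 and 11.8 regions, and the accessible share was 6.77%, 6.47% and 6.12%. Over all protein-coding genes the medians were 3 regions, 3.69 regions per 100 kb and 1.81% accessible.

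Cd247 had 12 regions in its window, 11 of them inside the gene and 1 at the start of its neighbour Creg1, which encodes a secreted glycoprotein. Of all protein-coding genes, 2.34% had 10 or more regions in the body. Among the 710 genes of a like length, 80 to 100 kb, the median was 3 regions (quartiles 1 and 5), with 19 genes (2.68%) that had at least 11. The window held 9.15 regions per 100 kb, below each of the cluster genes, and 7.38% of it was accessible, above each of them. The median width of its regions was 732 bp, and that of the cluster regions was 586 bp.

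**Figure D2:**
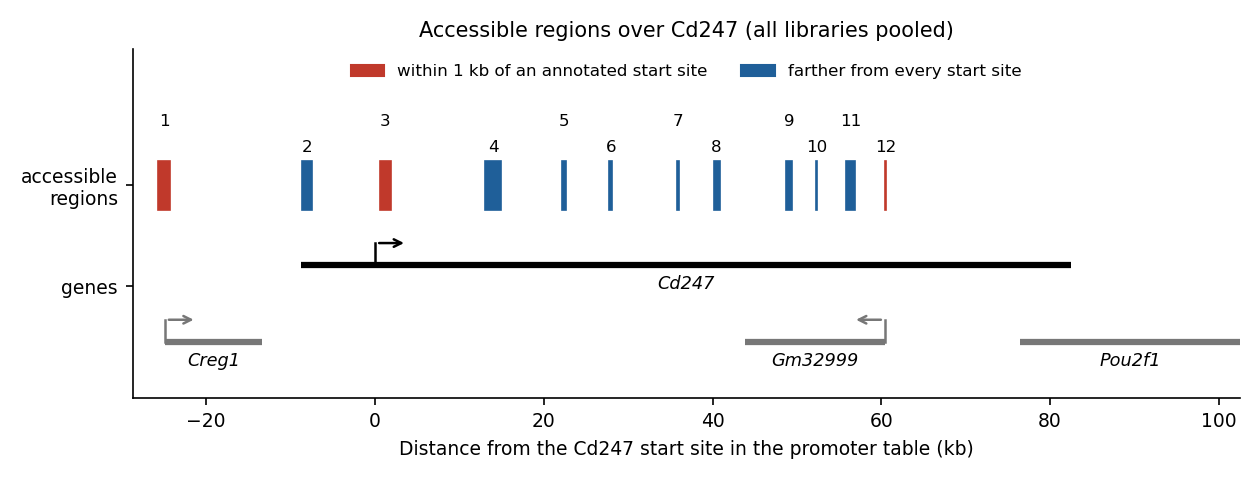
Map of Cd247, with the distance from its start site in the promoter table (kb) on the horizontal axis, the 12 accessible regions above, numbered from low to high coordinates, and genes below with arrows at start sites inside the window. Regions 2 to 12 lie inside the gene, and none lies in its last 21.9 kb.

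The regions of Cd247 were spread along the gene up to its last 21.9 kb. Region 2 (chr1:165780051-165781265, 1215 bp) lay at the upstream end of the annotated span, ahead of the start site in the promoter table. In the first 20 kb past that start site there were 2 regions that covered 3162 bp, and in the next 20 kb there were 3 regions that covered 1103 bp. The stretch from 40 to 60 kb held 4 regions with 2615 bp and that from 60 to 80 kb held 1 region with 223 bp. No region lay past it in the gene, whose last part overlaps Pou2f1, which encodes the transcription factor Oct-1 and runs on the opposite strand. Neighbouring regions inside the window were a median of 7.19 kb apart, against 3.4 kb in the cluster and 18.5 kb over all neighbouring regions. Gaps that run past a window edge were left out for Cd247 and the cluster, which lowers their medians, but not over all regions.

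The widest region at any of the 4 genes lay inside Cd247 and away from its start. Region 4 (chr1:165801777-165803625) was 1849 bp wide, and its nearest edge was 13096 bp past the start site. Of all regions, 0.171% were at least as wide, and of those over 1 kb from every start site 0.0904%. Region 11 (chr1:165844541-165845609), 55860 bp past the start site, was 1069 bp wide. The remaining regions inside the gene, apart from those at 587 bp and at the upstream end of the annotated span, were between 82 and 753 bp wide. The narrowest, region 10 (chr1:165840936-165841017), was 82 bp wide.

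Region 12 (chr1:165849060-165849282, 223 bp), the last one in Cd247, covered the start site of Gm32999, a long noncoding RNA gene on the opposite strand. Regions 9, 10 and 11 lay inside both Cd247 and Gm32999. The list carries no strand, so these regions belong to both annotations.

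Several of the widest regions at the CD3 genes lay away from start sites. Of the 20 regions, 6 were at least 1 kb wide, among them Cd247 region 1 at the start of the neighbour Creg1, against 6.31% of all regions. Of the 12 that lay over 1 kb from every start site, 4 were at least 1 kb wide, namely cluster region 6 and Cd247 regions 2, 4 and 11, against 2.83% of all such regions; region 2 lies at the upstream end of the annotated Cd247 span. These 12 had a median width of 614 bp, against 263 bp over all such regions. The 8 within 1 kb of a start site had a median width of 690 bp, against 725 bp. They include the regions at the starts of Ube4a, Creg1 and Gm32999. Neighbouring regions at 1 gene are not independent, so no test was made of these shares.

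**Figure D3:**
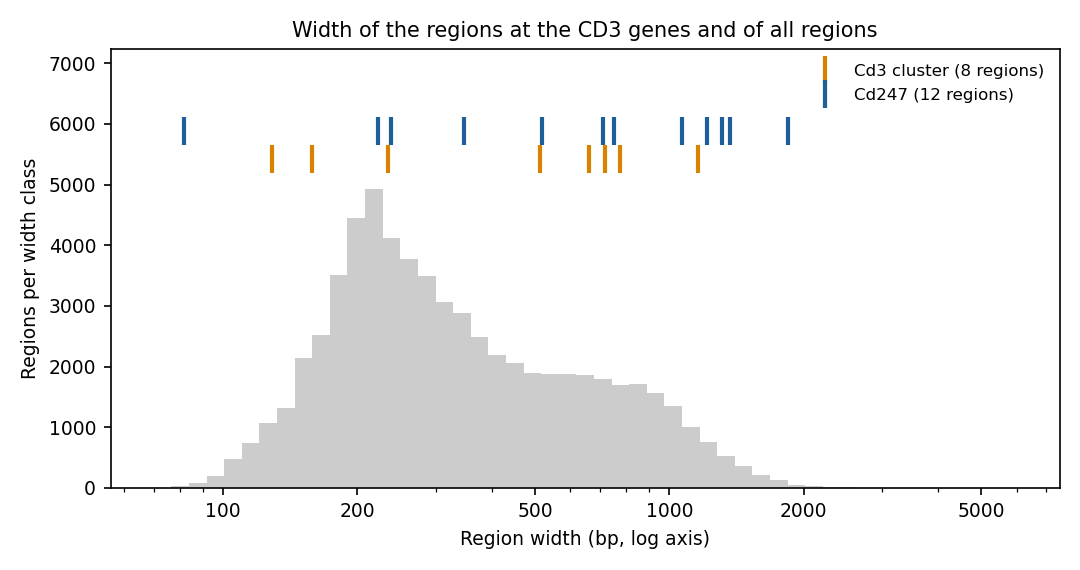
Width of accessible regions, with width in bp on a log axis and the number of regions per width class as grey bars for all regions on assembled chromosomes. Ticks above mark the 8 regions of the Cd3 cluster, from 129 to 1159 bp, and the 12 regions of Cd247, from 82 to 1849 bp, 5 of which are over 1 kb.

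The regions inside Cd247 were also set against those of other genes with many regions. Of the 513 protein-coding genes with 10 or more regions in the body, the median length was 280 kb, and 34 were no longer than Cd247. The median width of the body regions was 711 bp in Cd247, and the median of this value over the 513 genes was 299 bp. A value of at least 711 bp was reached by 2 of the 513 genes, Cd247 included. Cd247 had 3 body regions that were at least 1 kb wide and over 1 kb from every start site. At least 3 such regions were found in 5 of the 513 genes, whose median was 0. In Cd247 they were regions 2, 4 and 11. Region 2 lies at the upstream end of the annotated span, and it counts here only because the promoter table holds no start site there. The accessible share of the body was 9.12% in Cd247, and 9 of the 513 genes reached it, Cd247 included. Of all protein-coding genes, which are mostly shorter than these, 8.56% reached it.

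The CD3 genes were set beside genes of T cell receptor signalling and beside 6 genes of related immune receptors, which encode signalling adaptors of other receptors and, as Ptcra, a chain of the pre-T cell receptor that itself signals through CD3. All 4 CD3 genes had a region within 1 kb of an annotated end, as did 30 of 34 signalling genes (88.2%) and 1 of the 6 related receptor genes, against 52.6% of all protein-coding genes. A region overlapped the body of all 4 CD3 genes and of all 34 signalling genes, against 65.5% of all protein-coding genes. A region in the 20 kb window, which the choice of regions used, was present for 82.9% of all protein-coding genes. The median number of regions per window was 6 for the CD3 genes, 9 for the signalling genes and 3.5 for the related receptor genes. Inside the gene alone the medians were 2, 5.5 and 0. Per 100 kb of window the medians were 11.4, 10.5 and 8.13 regions. No test was made between these lists.

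**Figure D4:**
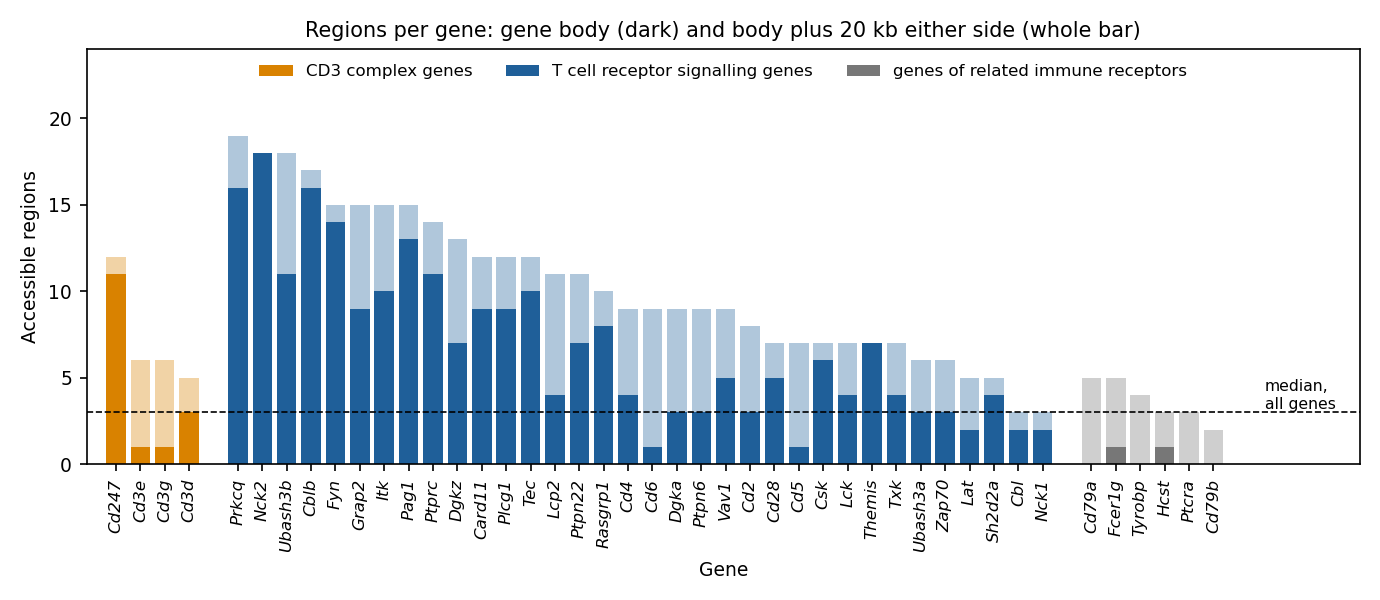
Accessible regions per gene for the 4 CD3 complex genes, 34 T cell receptor signalling genes and 6 genes of related immune receptors; dark bars count regions in the gene body, whole bars add 20 kb on either side, and the dashed line is the median of whole bars over all protein-coding genes. Cd247 reaches 12 and Prkcq 19, whereas 4 of the 6 related receptor genes have no dark bar.

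The signalling genes with the most regions in the window were Prkcq with 19, Nck2 and Ubash3b with 18 each, Cblb with 17 and Fyn with 15. Prkcq encodes protein kinase C theta, Nck2 an adaptor that can bind CD3 epsilon, Ubash3b a phosphatase, Cblb a ubiquitin ligase that restrains activation, and Fyn a kinase related to Lck. Inside the gene, 7 of the 34 had at least the 11 regions of Cd247, and 16 of the 34 had more regions per length of body. Those 7 are all longer than Cd247, at 113 to 196 kb against 91.2 kb. An accessible share of the body of at least 9.12%, that of Cd247, was found in 5 of the 34. A share of at least 24.5%, that of Cd3d, was found in 0 of the 34. The nearest to Cd3d was Cd2, chosen here after its value was seen, with 21.9%; it encodes an adhesion receptor. Of the 34 genes, 25 had no body region that was both 1 kb wide and over 1 kb from every start site. Of the others, 8 had 1 and Cblb had 3, the number in Cd247 with region 2 at its upstream end counted.

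The 4 signalling genes without a region at an annotated end were Csk, which encodes a kinase that inhibits Lck, the phosphatase genes Ptpn6 and Ptpn22, and Ubash3b. All 4 had regions inside the gene, with 6 in Csk, 3 in Ptpn6, 7 in Ptpn22 and 11 in Ubash3b. Csk, Ptpn22 and Ubash3b had one within 1 kb of a start site in the promoter table, as Cd247 did inside its annotated span.

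The 6 related receptor genes had 0 or 1 region inside the gene. They are short, from 2.14 to 8.05 kb, and the median over all protein-coding genes was 1 region in the body, so these counts do not set them apart. Fcer1g, which encodes the Fc receptor gamma chain and is related to Cd247, had 1 region of 211 bp inside the gene and none within 1 kb of an end. Tyrobp, which encodes DAP12 of myeloid and natural killer cells, Cd79a and Cd79b of the B cell receptor, and Ptcra, which encodes the pre-T cell receptor alpha chain of thymocytes, had 0 regions inside the gene. Neither Ptcra nor Hcst encodes a protein with an ITAM. Hcst, which encodes the adaptor DAP10, had 1 region of 746 bp, at its start. Regions in the 20 kb on either side numbered 5 for Cd79a, 4 for Tyrobp, 3 for Ptcra and 2 for Cd79b, and these windows also hold other genes.

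Markers of the sorted cells and of other cells were counted in the same way. All 5 markers of naive CD4 T cells counted, among them Cd4 and Ccr7, had a region within 1 kb of an annotated end. So did 3 of 4 markers of CD8 T cells (not Cd8a), 0 of 6 of B cells, 2 of 5 of myeloid cells and 1 of 3 of natural killer cells, against 52.6% of all protein-coding genes. The lists are short, and no test was made of them. A region says where chromatin was open in at least some of the cells and does not measure expression.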

How the data were processed

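ATAC-seq was performed on 4 libraries of naive CD4 T cells, 2 labelled DDX55 KO and 2 labelled WT. The deposited data are 1 list of region positions, in 3 columns without header, joined by the authors over all libraries. Build mm10 and the tools MACS3 3.0.0b1, SAMtools 1.15.1, Bowtie2 2.5.08 and fastp 0.12.4 are named in the submitters' processing notes. Settings, the handling of duplicates and of the cut offset, the peak threshold and the way of joining are not stated there or in the labels. Depth per library is unknown, and no spread between libraries, interval or test could be given.

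Positions were converted to 1-based. Genes, start sites, strands and promoter sequences came from RefSeq tables of GRCm38.p6; 21887 protein-coding genes were on assembled chromosomes, and 17492 of them (79.9%) had a start site in the promoter table, as all 4 CD3 genes did. A gene with several start sites counted as accessible if any of them was. An overlap of 1 bp counted. Exons were not annotated in the tables used, so regions in a gene were not split into exonic and intronic. Motifs were searched in the 250 bases before a start; sequences of the other regions were not analysed here.

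The genes and lists were chosen with earlier results of these data known. Named genes were the CD3 genes, their neighbours, the 5 signalling genes with the most regions and those without one at an end, and the 6 genes of related receptors; others were chosen after their values were seen. A marker gene of naive CD4 T cells is not reported here. The length, width, CpG and gene-pair comparisons and those of start sites were added after the files were seen. Overlap counting was tested on simulated data. Alternatives were other flanks and end windows, region middles, regions of at least 300 bp, joining of regions under 150 bp apart, and motifs on the sense strand. Python 3.11.15, pandas 2.3.3, NumPy 2.4.6 and matplotlib 3.10.9 were used.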

Additional observations from a re-analysis of the deposited data

How the results depend on the processing

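Of 21 alternatives computed for 6 counts, 20 stayed within 1.5 times the reported value. Among these 20, joining regions under 150 bp apart could change nothing, because neighbouring regions at the CD3 genes were at least 557 bp apart. Widths and accessible shares were not among the 6 counts. The alternative past 1.5 times was the number of motif matches in the 4 promoters, which was 7 on the sense strand alone, against 15 on both strands. The 20 regions of the CD3 genes became 18 with flanks of 10 kb, 24 with 50 kb, 16 in the gene bodies alone and 14 with regions of at least 300 bp. The 6 regions within 1 kb of an annotated end became 5 with 500 bp and 4 with regions of at least 300 bp. The region at the Cd3d start, 234 bp wide, is among those that the width filter removes. Signalling genes with a region at an end numbered 30 to 32 under every alternative tried, and genes of related receptors 1. No paired analysis was possible because the deposited list pools all libraries; for the same reason no library could be left out. No score or read depth came with the regions, so width was the only measure by which a stricter list could be made, and how width relates to signal was not tested.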

Other observations

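Taken as a set of 3 adjacent protein-coding genes, Cd3g, Cd3d and Cd3e held 5 regions over a span of 40.1 kb, against a median of 5 regions over all 21845 such sets, and 51.2% of sets had at least as many. Per 100 kb of span the cluster had 12.5 regions, against a median of 3.35, and 3.81% of sets reached this density. The accessible share of the span was 6.81%, against a median of 1.49%, and 3.78% of sets reached it. The 3 cluster genes thus stood in the upper part of the range by density and at its middle by number. The sets were not matched for span, on which density and share depend. Cd247 is not part of this set.

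Past the last region of Cd247 the list held no region for 137 kb (chr1:165849283-165985956), a length that 5.51% of gaps between neighbouring regions reached. This stretch holds the 3′ part of Cd247 and most of Pou2f1, whose 2 regions lie nearer to its start.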
